A study of Caenorhabditis elegans with 2 samples.

Results

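Heterochronic genes time the cell fates of the Caenorhabditis elegans larva, and 10 of them were examined for binding of the zinc finger protein SDZ-12 in the L4 stage, out of 19973 protein-coding genes in the annotation. They were mab-10, lin-29, lin-41 and lin-42, taken as late-acting, lin-14, lin-28, hbl-1 and lin-46, taken as early-acting, and nhl-2 and puf-9, which encode cofactors of microRNA repression. The classes are a simplification, since lin-42 and lin-46 act at more than 1 stage and could be placed otherwise. The list was drawn up with ranks in these data known, and mab-10, nhl-2 and puf-9 stand in it because of strong peaks upstream of them. Their values in the strongest list are therefore a description, and no count of genes was tested.

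The chromatin came from strain OP670, in which the integrated array wgIs670 carries sdz-12::TY1::EGFP::3xFLAG together with unc-119(+), in animals mutant for unc-119 (tm4063). The array adds tagged copies to the strain. Larvae hatched from bleached adults were synchronised by starvation, fed and collected whole, of both sexes, as L4 animals of 71 h. Fragments sheared by sonication were precipitated with an antibody against GFP in 2 biological replicates of this 1 group, and no other condition or untagged strain was compared. The authors deposited 4 lists of called intervals, each with a summit and a signal value. A list of 30000 calls exists for replicate 1, for replicate 2 and for both pooled, and the optimal list of 665 peaks coincides with the 665 pooled calls of highest signal. The authors label the pooled list as peaks and background, so a call below the optimal list need not be a site of binding. Each long list stops at 30000 calls, so a gene without a call may still have signal below that cut. Ranks below run from 1 for the strongest call of a list. Signal values have no stated scale, and they ran higher in the pooled list than in the replicate lists, so calls were compared between lists by rank. In chromatin of whole larvae, binding in fewer cells and weaker binding in each cell cannot be told apart.

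The heterochronic pathway is a chain of regulators. Early genes such as lin-14, lin-28 and hbl-1 keep cells in early larval programs. MicroRNAs of the lin-4 and let-7 families switch those genes off in turn. An exception among the genes taken as early-acting is lin-46, whose product acts against HBL-1. Falling LIN-14, LIN-28, HBL-1 and LIN-41 levels finally allow LIN-29 and its partner MAB-10 to start the adult program in the skin, at the end of the L4 stage. The pathway is best known in the seam cells, the stem-like cells of the lateral skin, which stop dividing and make adult cuticle at that switch.

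A gene was given a promoter call when a summit fell from 1000 bp upstream to 200 bp downstream of its annotated 5' end. The letters below are pooled summits in these windows with 50 bp on each side (ce11, plus strand, RefSeq copy of the assembly), with motif matches in capitals, and are shown because these are the sites that the counts rest on. The 3 sites that belong to the optimal list come first.
mab-10, chrII:10527596-10527696: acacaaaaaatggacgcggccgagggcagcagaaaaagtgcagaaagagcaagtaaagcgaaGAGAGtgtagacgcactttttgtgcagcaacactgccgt
nhl-2, chrIII:4899884-4899984: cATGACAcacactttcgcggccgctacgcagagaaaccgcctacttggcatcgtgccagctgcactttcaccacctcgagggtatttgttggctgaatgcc
puf-9, chrX:5841272-5841372: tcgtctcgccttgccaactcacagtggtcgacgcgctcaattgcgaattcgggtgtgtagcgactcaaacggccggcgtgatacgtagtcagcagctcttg
The 6 weaker sites, from the rest of the pooled list, are these.
mab-10 second call, chrII:10527801-10527901: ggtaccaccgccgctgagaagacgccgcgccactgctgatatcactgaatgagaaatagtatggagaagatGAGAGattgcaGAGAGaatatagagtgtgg
lin-42, chrII:1252238-1252338: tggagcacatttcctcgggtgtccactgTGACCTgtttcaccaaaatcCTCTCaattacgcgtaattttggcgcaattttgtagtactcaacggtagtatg
lin-14, chrX:11464869-11464969: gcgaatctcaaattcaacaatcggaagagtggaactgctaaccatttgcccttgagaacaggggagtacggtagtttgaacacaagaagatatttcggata
hbl-1, chrX:5821556-5821656: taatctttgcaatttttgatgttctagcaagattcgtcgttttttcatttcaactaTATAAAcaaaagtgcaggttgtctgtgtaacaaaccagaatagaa
lin-46, chrV:12967932-12968032: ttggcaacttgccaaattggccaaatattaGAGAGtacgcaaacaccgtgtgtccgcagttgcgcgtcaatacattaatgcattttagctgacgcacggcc
puf-9 second call, chrX:5841541-5841641: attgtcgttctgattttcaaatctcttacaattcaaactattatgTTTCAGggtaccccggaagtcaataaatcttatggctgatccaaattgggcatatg

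The sites differed widely in base composition. GC content was 49.5% at the strong mab-10 site, 56.4% at nhl-2 and 57.4% at puf-9. The weaker sites had 49.5% at the second mab-10 call, 44.6% at lin-42, 42.6% at lin-14, 30.7% at hbl-1, 47.5% at lin-46 and 35.6% at the second puf-9 call. Windows of the same length averaged 47.6% ± 8.76 at all optimal summits (SD over 665 windows), 42.7% ± 8.45 at all pooled summits (SD over 30000) and 33% ± 8.22 just upstream of protein-coding 5' ends (SD over 19973). The nhl-2 and puf-9 sites thus lay above the optimal mean by about 1 SD, and the hbl-1 site lay below the promoter mean.

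Short motifs were sought on both strands in these windows. GAGAG was taken as a short sequence of the kind bound by the zinc finger protein EOR-1. It was in both mab-10 sites, once in the stronger and at 2 places in the weaker, and once each in the lin-42 and lin-46 sites. The same letters were in 29% of all optimal windows, 18.9% of pooled windows and 17.1% of promoter windows. TGTCAT, of the kind bound by SKN-1, was in the nhl-2 site and in 4.21% of optimal windows, 4.9% of pooled windows and 4.92% of promoter windows. AGGTCA, of the kind bound by nuclear receptors, was in the lin-42 site and in 2.86%, 2.89% and 3.11% of those 3 sets, in the same order. TATAAA was in the hbl-1 site and in 6.62% of optimal windows, 6.14% of pooled windows and 19.5% of promoter windows. TTTCAG was in the second puf-9 site, which spans the gene's 5' end, and in 9.77% of optimal windows, 15.8% of pooled windows and 26% of promoter windows. None of the motifs sought was in the strong puf-9 site or in the lin-14 site. The others sought were GAGACGCAG as a longer EOR-1 form, CACGTG as the E box, TGATAA for GATA factors, TATCAT as another SKN-1 form, AAGTGAAA for the Blimp-1 homologue, GGGCGG as the GC box, GTTCGANNC as the core of the tRNA B box, and a run of 8 T. None of these was in any of the 9 windows. Shared letters between sites are a description of the windows, and no motif of SDZ-12 was used.

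At the promoters, 1 of 4 late-acting genes (mab-10), 0 of 4 early-acting genes and both cofactor genes had a peak of the optimal list. This made 3 of 10 heterochronic genes, beside 1.61% of all 19973 protein-coding genes, a comparison from which nothing can be read because those 3 genes were chosen on their peaks. In the whole pooled list, 2 of 4 late-acting genes (mab-10 and lin-42) and 3 of 4 early-acting genes (lin-14, hbl-1 and lin-46) had a promoter call, and with both cofactors these were 7 of 10. Of all protein-coding genes, 31.6% had one, but nothing can be read from the count of 7 either, since it includes the 3 genes chosen on their peaks. Of the other 7 genes, 4 had a pooled promoter call. With 500 bp in place of 1000 bp upstream, the count of 7 became 3, namely mab-10, lin-42 and puf-9.

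The replicate lists differed in which genes they held. Replicate 1 had promoter calls at 1 of 4 late-acting genes (mab-10) and at 3 of 4 early-acting genes (lin-28, hbl-1 and lin-46), or 6 of 10 with the cofactors, beside 32.1% of all genes. Replicate 2 had them at the same 7 genes as the pooled list, beside 30.9% of all genes. Among the 665 strongest calls of each replicate, replicate 1 had nhl-2 and puf-9 in the promoter window, 2 of 10, beside 1.56% of all genes. Replicate 2 had mab-10 as well, 3 of 10, beside 1.49%. No early-acting gene had a promoter call of that strength in either replicate, and the late-acting count rested on mab-10 in replicate 2 alone.

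**Figure D1:**
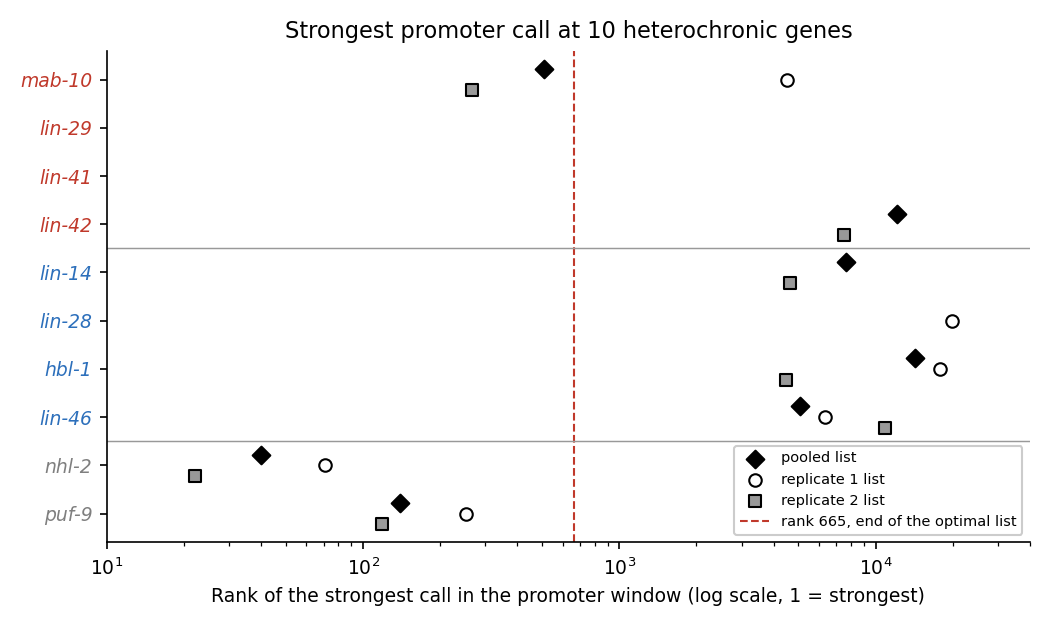
Rank of the strongest promoter call of each heterochronic gene in the pooled list (black diamonds), the replicate 1 list (open circles) and the replicate 2 list (grey squares), on a log axis where 1 is the strongest call. The dashed line marks rank 665, the end of the optimal list. Late-acting genes are at the top in red, early-acting genes below in blue and cofactor genes at the bottom in grey. A gene with no symbol had no call, as at lin-29 and lin-41, and mab-10 lies on both sides of the line.

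Of the late-acting genes, mab-10 (chrII:10528084-10534380, plus strand) had the only strong promoter peak. It encodes a NAB family cofactor that binds LIN-29 and is needed for the moult cycle and seam cell divisions to end. The pooled summit lay 438 bp upstream of the 5' end, at rank 510 with a signal of 146. In replicate 1 the call ranked 4505 with a signal of 50.9, and in replicate 2 it ranked 265 with a signal of 88.4. The summits of the replicates lay 436 and 424 bp upstream, so the position was alike and the rank was not. Of the 665 optimal peaks, 16 (2.41%) had a nearest replicate 1 call, within 200 bp, of that rank or a lower one, or none, and 9 (1.35%) did when the strongest call within 200 bp was taken. The ratio of the replicate ranks was as high at 15 of the 650 optimal peaks found in both replicates (2.31%). A second pooled call overlapped the first in its interval and peaked 233 bp upstream of mab-10, at rank 7437 with a signal of 78.8. It ranked 29512 in replicate 1 and 3340 in replicate 2. No other annotated gene had its 5' end nearer to the main mab-10 summit than mab-10 itself, and no tRNA, snoRNA, snRNA or miRNA gene lay within 200 bp.

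The period homologue lin-42 (chrII:1233236-1252359, minus strand), whose transcripts rise and fall with each moult and whose loss gives early adult traits, had a weak call at its first 5' end. The pooled summit was 71 bp downstream, in a coding exon, at rank 12123 with a signal of 68.8. Replicate 2 had it at rank 7519 with a signal of 41.6, and replicate 1 had no promoter call. When the 5' ends of all lin-42 transcripts were used, the strongest promoter signal became 114, at rank 1415, from a call 238 bp upstream of a shorter transcript. Neither lin-29 (chrII:11917642-11935343, minus strand), the EGR-type zinc finger gene at the end of the pathway, nor lin-41 (chrI:9334800-9342496, minus strand), the TRIM-NHL RNA-binding protein repressed by let-7, had a promoter call in any of the 4 lists. The late-acting genes therefore ran from a rank inside the optimal list, at mab-10, which was chosen for its peak, to no promoter call, at lin-29 and lin-41.

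None of the early-acting genes had a promoter call of the optimal list. The strongest was upstream of lin-46 (chrV:12968855-12970730, plus strand), which encodes a gephyrin-like protein that acts against HBL-1. Its pooled summit ranked 5062 with a signal of 86.7 and lay 873 bp upstream. It was also exactly at the 5' end of the gene R186.8 on the other strand. The 5' end of another protein-coding gene, R186.3, was nearer as well, at 772 bp. The lin-46 call ranked 6352 with a signal of 47 in replicate 1 and 10857 with a signal of 37.5 in replicate 2, the only early-acting promoter call with a summit within 200 bp in both replicates. At lin-14 (chrX:11465560-11485871, plus strand), whose nuclear protein specifies the first larval program and which is the classic target of lin-4, the pooled call ranked 7656 with a signal of 78.2, 641 bp upstream. Replicate 2 had it at rank 4624 with a signal of 47 and replicate 1 had none. The ncRNA genes T25C12.9, T25C12.10 and T25C12.8 had 5' ends nearer to that summit than lin-14 has.

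The hunchback-like zinc finger gene hbl-1 (chrX:5822142-5827755, plus strand) had its pooled call 536 bp upstream, at rank 14251 with a signal of 65.4. The ncRNA gene F13D11.8 had its 5' end 428 bp from that summit, nearer than that of hbl-1. Replicate 2 had this call at rank 4485 with a signal of 47.3. Replicate 1 had a different one, 86 bp downstream of the 5' end in the 5' UTR, at rank 17908 with a signal of 34.5. The gene lin-28 (chrI:8407630-8410804, minus strand), whose RNA-binding product blocks let-7 maturation, had a promoter call in replicate 1 alone, 135 bp upstream, at rank 19886 with a signal of 33.1. The pooled ranks of the promoter calls were thus 510 and 12123 at the late-acting genes with a call, counting the strongest of each gene, and ran from 5062 to 14251 at the early-acting genes. The groups overlapped, since lin-42 ranked below lin-46 and lin-14. With the 5' ends of all transcripts the strongest lin-42 call was instead the one at rank 1415, which ranked 436 in replicate 1 and 25776 in replicate 2. The late-acting genes with a call, at 510 and 1415, then did not overlap the early-acting genes with a call, whose strongest signals were as before. That order leaves out lin-29, lin-41 and lin-28, which had no pooled promoter call. It also rests on mab-10, which was chosen for its peak, so nothing about the classes can be read from it.

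The cofactor genes, which were chosen for strong peaks, had promoter calls among the 665 strongest of both replicates. A TRIM-NHL protein that enhances repression by the microRNA complex is made by nhl-2 (chrIII:4893658-4899085, minus strand). Its peak ranked 40 in the pooled list with a signal of 290.3, 71 in replicate 1 with a signal of 132 and 22 in replicate 2 with a signal of 162. The summits lay 849 bp upstream in the pooled list and 852 and 853 bp upstream in replicates 1 and 2, a spread of a few base pairs. The pooled summit was inside the ncRNA gene F26F4.14, 16 bp from its 5' end, and nearer to tag-340, a protein-coding gene in the opposite direction whose 5' end was 574 bp away. Which of these genes the nhl-2 peak belongs to cannot be told apart from position.

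A Pumilio family repressor needed for the down-regulation of hbl-1 is encoded by puf-9 (chrX:5841592-5845987, plus strand). The puf-9 peak ranked 139 in the pooled list with a signal of 207, 251 in replicate 1 with a signal of 97.5 and 118 in replicate 2 with a signal of 110.4. Summits were 270 bp upstream in the pooled list, 310 bp in replicate 1 and 270 bp in replicate 2. The site lay inside a pair of ncRNA genes on opposite strands, W06B11.7 and W06B11.9, with the summit 28 and 137 bp from their 5' ends. A second, weak call overlapped its interval and peaked 1 bp upstream of puf-9, at rank 14345 with a signal of 65.2. Summits inside annotated ncRNA genes were 97 of 665 in the optimal list (14.6%) and 847 of 30000 in the pooled list (2.82%), and the 7764 genes of that class cover 1.09% of the genome. The part of this overlap in the nhl-2 and puf-9 signals was not tested.

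Set against every gene, the strongest pooled promoter signal of nhl-2 was reached by 0.175% of protein-coding genes, that of puf-9 by 0.466% and that of mab-10 by 1.36%. For mab-10 the share was 6.67% in replicate 1 and 0.761% in replicate 2, whereas nhl-2 had 0.275% and 0.0851% and puf-9 had 0.701% and 0.421%. The pooled signal of lin-42 at its first 5' end was reached by 14.8% of genes, and the signals of lin-46, lin-14 and hbl-1 by 7.28%, 10.1% and 16.8%. Over the 6309 protein-coding genes with a pooled promoter call, the median strongest signal was 67 and the ninetieth percentile was 111. The optimal list ended at a signal of 136. The weakest call inside it among these genes was that of mab-10 at 146. The strongest outside it were, in a gene body, a lin-14 call at 115 (rank 1382) and, in a promoter window, the lin-46 call at 86.7 (rank 5062).

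**Figure D2:**
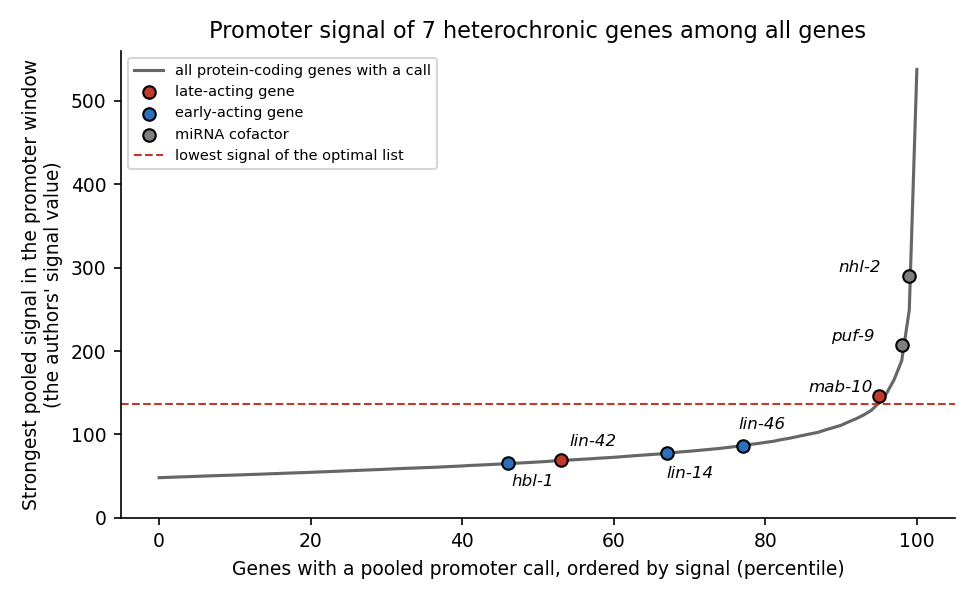
The strongest pooled signal in the promoter window (vertical axis, the authors' signal value) of every protein-coding gene with a pooled promoter call, ordered from weakest to strongest (horizontal axis, percentile), as a grey curve. Points are the 7 heterochronic genes with such a call, late-acting in red, early-acting in blue and cofactors in grey, and the dashed line is the lowest signal of the optimal list, 136. Only mab-10, puf-9 and nhl-2 lie above the line.

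The gene most like each of the 3 by its promoter signals in both replicates was found among 3643 protein-coding genes outside the list, by the distance in log2 signal. For mab-10 it was mrt-2, with signals of 50 in replicate 1 and 90 in replicate 2 and a distance of 0.036. For puf-9 it was snr-4, with 95.5 and 112 and a distance of 0.04. For nhl-2 it was tag-340 at a distance of 0, because its window holds the very same call.

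Within gene bodies no heterochronic gene held an optimal summit, beside 1.49% of all protein-coding genes. All 10 held at least 1 call in each of the longer lists, beside 52% of all genes in the pooled list, 51.9% in replicate 1 and 52.1% in replicate 2. The genes were listed with these data known, and a longer gene has more room for calls, so nothing can be read from that count. The 10 genes run from 1.88 kb (lin-46) to 20.3 kb (lin-14), so densities per kb are given. The late-acting genes had 25 pooled calls in 50.8 kb (0.492 per kb) and the early-acting genes 23 in 31 kb (0.742 per kb). In replicate 1 the late-acting density was 0.492 and the early-acting density 0.646, and in replicate 2 they were 0.551 and 0.678. The cofactor genes had 0.713, 1.02 and 0.814 calls per kb in the pooled, replicate 1 and replicate 2 lists. Early-acting density exceeded late-acting density in all 3 lists, but 18 of the 23 pooled calls were in lin-14. Without lin-14 the other 3 early-acting genes had 0.469 calls per kb in the pooled list and 0.375 in replicate 1, both below the late-acting genes, and 0.656 in replicate 2, above them.

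Together the 10 genes had 55 pooled calls in 91.6 kb, or 0.6 per kb, with 0.6 in replicate 1 and 0.622 in replicate 2. All protein-coding genes together had 0.343 per kb in the pooled list, 0.331 in replicate 1 and 0.349 in replicate 2. Nothing can be read from that comparison, since the 10 genes were chosen with earlier results of these data known. Of the 55 calls, 18 were in lin-14 and 13 in lin-42. Genes of at least 10 kb, which among the 10 are only lin-14, lin-42 and lin-29, had 0.334 per kb in the pooled list. Among these 998 long genes, each gene itself included, the 0.886 pooled calls per kb of lin-14 were reached by 13 (1.3%), the 0.68 of lin-42 by 64 (6.41%) and the 0.395 of lin-29 by 360 (36.1%). In the pooled list the lowest density among the 10 was 0.159 per kb at mab-10, from 1 call, and the highest was 0.91 at puf-9. The mab-10 density was 0.318 in replicate 1 and 0.476 in replicate 2, and it was the lowest in neither. In replicate 2, for example, hbl-1 had 0.356. Replicates did not always order the genes alike, as lin-28 had 0.315 calls per kb in replicate 1 and 1.26 in replicate 2.

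**Figure D3:**
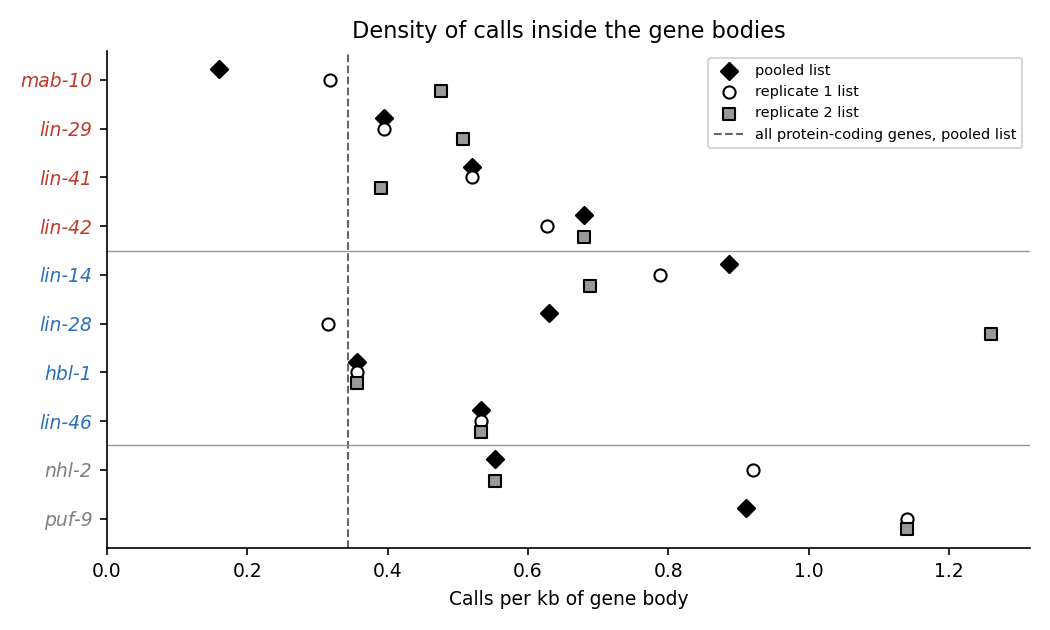
Calls per kb of gene body (horizontal axis) for each heterochronic gene in the pooled (black diamonds), replicate 1 (open circles) and replicate 2 (grey squares) lists, with late-acting genes at the top, early-acting genes in the middle and cofactor genes at the bottom. The dashed line is the pooled density over all protein-coding genes, 0.343 per kb. In the pooled list every gene but mab-10 lies to its right.

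**Figure D4:**
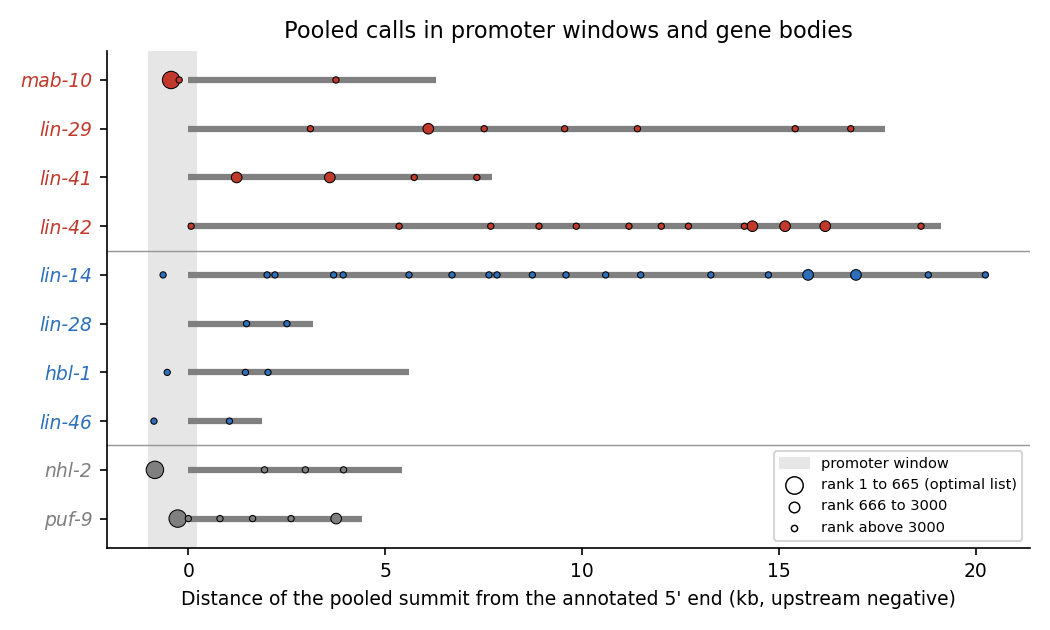
Position of every pooled call (points) relative to the annotated 5' end of each heterochronic gene, in kb along the gene, with the gene body as a grey bar and the promoter window shaded. Larger points are stronger calls. The 3 largest, of the optimal list, lie upstream of mab-10, nhl-2 and puf-9, and the stronger calls within lin-42 and lin-14 lie toward the 3' parts of those genes.

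The strongest calls inside the late-acting genes were in lin-42, lin-41 and lin-29, all outside the optimal list. In lin-42 the strongest was in an intron 15152 bp past the first 5' end and 238 bp upstream of the 5' end of a shorter transcript, at rank 1415 with a signal of 114. It ranked 436 in replicate 1 and 25776 in replicate 2. The next lin-42 call, in a coding exon at 16172 bp, ranked 2063 with a signal of 106 in the pooled list, 7516 in replicate 1 and 2710 in replicate 2. In lin-41 the strongest pooled call was in a coding exon at 3592 bp, at rank 1748 with a signal of 109.6, and ranked 1846 and 7621 in replicates 1 and 2. A lin-41 coding exon at 1227 bp held another, at rank 2352 with a signal of 103, and at ranks 6986 and 3551. In lin-29 the strongest was intronic at 6093 bp, with pooled rank 2832 and a signal of 99.2, and ranked 1865 and 11249. The single pooled call in the body of mab-10 ranked 11671.

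Among early-acting genes, lin-14 held the strongest calls in its body. An intronic call at 16953 bp ranked 1382 with a pooled signal of 115, and ranked 4554 in replicate 1 and 400 in replicate 2. Another, in an intron at 15737 bp, ranked 1419 with a signal of 114, and ranked 535 in replicate 1 and 5927 in replicate 2. Each of these lin-14 calls was thus among the 665 strongest of 1 replicate, and not the same one. A lin-14 call in the 3' UTR, with pooled rank 4501 and a signal of 89.2, was within 200 bp of the snoRNA gene T25C12.11. The strongest body calls ranked 12464 in lin-28, 13750 in hbl-1 and 29590 in lin-46, so the strongest lin-14 calls stood far above those of the other early-acting genes. In the cofactor genes the strongest body call was in the 3' UTR of puf-9, at rank 2442 with a signal of 102, and in a coding exon of nhl-2, at rank 9061 with a signal of 74.8.

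By annotation, 29 of the 55 pooled body calls (52.7%) were in introns, which make up 64% of the summed length, 20 (36.4%) in coding exons, which make up 22.7%, and 6 (10.9%) in 3' UTRs, which make up 11.1%. Only 5 of the 55 lay in the promoter window of any annotated transcript, counted from 1000 bp upstream to 200 bp downstream. Of these, 4 were in lin-42, among them its strongest, and 1 was in lin-14.

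Replicate support was lower below the optimal list. The authors derived that list with a measure of reproducibility, so its higher support cannot be read as a result. Of all optimal peaks, 650 of 665 (97.7%) had a summit within 200 bp in both replicates. Among the 63 distinct pooled calls at the heterochronic genes 35 did (55.6%), 9 were in replicate 1 alone, 18 in replicate 2 alone and 1 in neither. Leaving out the 3 optimal peaks, 32 of 60 were in both (53.3%), beside 44.5% of the other 29335 pooled calls of the genome. A weak call was therefore often missing from a replicate, at these genes as over the genome. One replicate call could match more than 1 pooled call. In lin-14 the pooled calls at ranks 4946 and 19589 both took the replicate 2 call at rank 21827. Closely spaced calls can gain such matches, and their part in the 53.3% and the 44.5% was not tested.

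**Figure D5:**
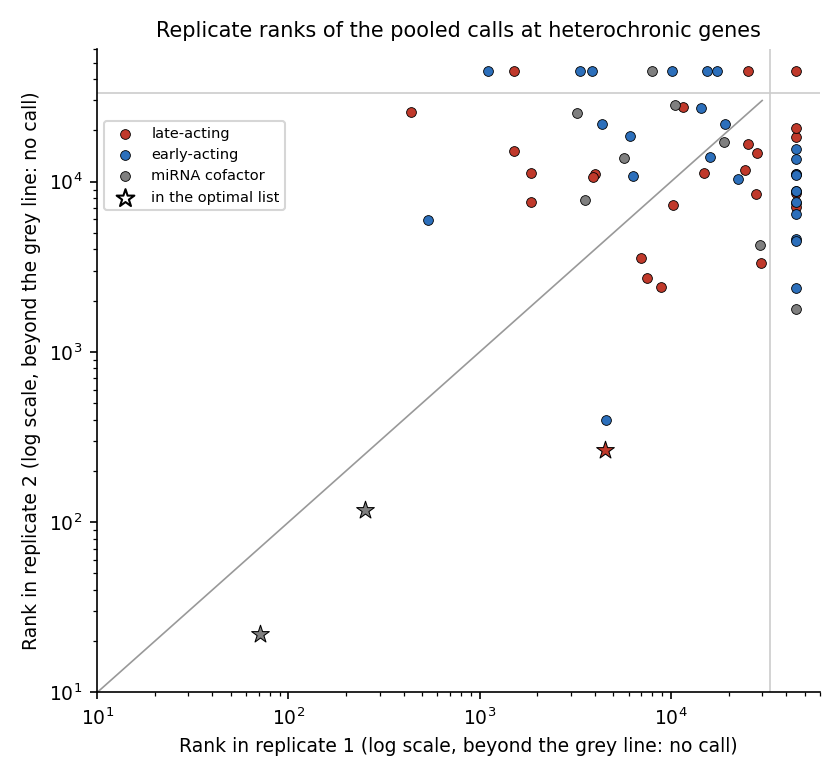
Rank of each of the 63 pooled calls at heterochronic genes in replicate 1 (horizontal, log axis) and replicate 2 (vertical, log axis), late-acting in red, early-acting in blue and cofactors in grey. Points beyond a grey line have no call within 200 bp in that replicate, and stars are the 3 optimal peaks. The stars of nhl-2 and puf-9 lie near the diagonal and that of mab-10, at 4505 and 265, lies away from it.

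Another 30 genes of the pathway were looked up for comparison, all matched in the annotation. They comprise 23 protein-coding genes, 6 microRNA genes and 1 lincRNA gene. Of the 23 protein-coding genes, 3 had an optimal peak in the promoter window, 14 a pooled call, 15 a replicate 1 call and 14 a replicate 2 call, beside the same 1.61%, 31.6%, 32.1% and 30.9% of all protein-coding genes. These genes too were listed with earlier results of these data known, so nothing can be read from their counts beside those shares. Upstream of lin-66, which represses lin-28, the peak ranked 135 with a signal of 209 at 462 bp, and 293 and 50 in replicates 1 and 2. Upstream of tim-1, a timeless homologue that works with the lin-42 partner kinase kin-20, it ranked 145 with a signal of 204 at 518 bp, and 495 and 66 in the replicates. That summit was 22 bp inside another protein-coding gene, Y75B8A.23, and close to the spliced leader gene sls-2.8. Upstream of din-1, the corepressor of the nuclear receptor DAF-12, it ranked 643 with a signal of 137 at 698 bp, and 835 and 1263 in the replicates, inside the ncRNA gene ZK20.8. The only optimal summit in a gene body of the 30 was in cgh-1, a DEAD-box RNA helicase of P bodies, which is named here after its value was seen, as is lep-2, just outside the optimal list at rank 684 with a signal of 135.

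In that list 6 genes were microRNA genes of the pathway, and the same limit holds for their counts. None had an optimal promoter peak, beside 1.53% of all 261 annotated microRNA genes, and 4 had a pooled call, beside 45.2%. Named after their values were seen, mir-241 ranked 1113, mir-48 ranked 2345 and mir-84 ranked 2650, all of the let-7 family, and lin-4 ranked 7326. In replicates 1 and 2 mir-241 had its best promoter calls at ranks 7530 and 401, at places more than 200 bp apart, mir-48 at 1508 and 9853, mir-84 at 2545 and 2149, and lin-4 at 24554 and 1663. No promoter call was found for let-7 or mir-237 in any of the 4 lists. The let-7 gene is annotated as a longer unit (chrX:14743590-14745321) than mir-237 (chrX:8154084-8154182), so their windows are not alike. The let-7 body held 2 pooled calls and the mir-237 body 0. Of the 4 microRNA genes with a pooled promoter call, mir-84 had the most even ranks between the replicates.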

How the data were processed

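Anti-GFP chromatin immunoprecipitation of tagged SDZ-12 was sequenced in 2 biological replicates. The authors called intervals in each replicate and on both pooled, with a control file, and derived the optimal list by IDR (irreproducible discovery rate), per the text files deposited with the lists. The assembly is ce11, per the labels. Which caller and which IDR threshold they used is not given in the sources used here. Each call's deposited signal value is the authors' own enrichment score per call, and the deposited −log10 q-value served only to break ties in rank. Read depth is unknown, since no reads were counted. The control file's library was not used here.

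Gene positions came from Ensembl release 115 (microRNA symbols were paired through RefSeq identifiers) and bases from RefSeq's WBcel235, the same assembly (0 calls ran beyond a chromosome's length). Calls were assigned by summit. Replicate calls were matched by nearest summit within 200 bp, and a replicate call could serve more than 1 pooled call. Promoter windows for motifs had the length of the summit windows and ended at each 5' end. Motifs were plain letters on both strands, and the listed ones can overlap one another. The members, the classes, the 30 other pathway genes and the motifs were chosen with earlier results of these data known. Other pathway genes were named where an optimal summit lay in the promoter window or the pooled call was among the 3 strongest of the list. With 1 group, no test across samples was possible and none was run, and nothing here carries a p-value. Assignment was tested on simulated data. Alternatives were other windows, other 5' ends, interval overlap, a stricter list, each replicate alone and, added after seeing the data, leaving out peaks near small RNA genes. Python 3.11.15, NumPy 2.4.6, pandas 2.3.3 and matplotlib 3.10.9 were used.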

Additional observations from a re-analysis of the deposited data

How the results depend on the processing

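The optimal promoter count of 3 heterochronic genes became 2 with 500 bp upstream or with the nearest 5' end only (nhl-2 lost both times), and 2 among the 332 strongest optimal peaks (mab-10 lost). Among those 332 peaks the late-acting count was 0 in place of 1, and 194 protein-coding genes had a promoter peak in place of 322. Counting the cofactor genes with the late-acting genes gave 3, and counting them with the early-acting genes gave 2 in place of 0. Taking each replicate alone, the late-acting count ran from 0 to 1 and the count of genes with a strong body call from 1 to 2 (lin-14 in both replicates, lin-42 in replicate 1). The pooled promoter count was 3 with 500 bp upstream. The early-acting count of optimal promoter peaks was 0 with each window, each choice of 5' end, interval overlap, the 332 strongest peaks and the 665 strongest calls of either replicate. Leaving out the 192 optimal peaks near tRNA, snoRNA or snRNA genes, an alternative chosen after seeing the data, kept mab-10, nhl-2 and puf-9. With the 5' ends of all transcripts, the strongest promoter signal of lin-42 was 114 in place of 68.8. No paired analysis was possible because there is 1 group. Unknown depth and the lack of an untagged strain limit what the weak calls can show.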
